A study of Mus musculus with 8 samples.

Results

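Clock, Per1, Per2, Per3, Cry1, Cry2, Nr1d1, Nr1d2, Dbp and Tef, 10 genes of the circadian clock, were examined in mouse liver among 15346 genes tested. They were chosen by name, as the rows of the deposited value table whose probe carries 1 of these symbols. These rows were 21 probes of 45018 features on the array. All 21 probes had a measured value on all 8 arrays, so no gene was lost to the filter on missing values.

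The series asked how liver of both sexes answers to repeated interleukin-1 beta (IL1-beta), an inflammatory cytokine. It has 8 Agilent 2-colour arrays in 4 groups of 2, which are female IL1-beta, male IL1-beta, female control and male control. All mice were C3H/HeN and 8 weeks old. The IL1-beta groups received recombinant murine IL1-beta at 25 ug/kg into the peritoneum on alternate days over 2 weeks, and the control groups received vehicle on the same schedule. Livers of all groups were taken 1 h after the last dose, so the response to that dose and the state left by the earlier doses cannot be told apart. The time of day of harvest is not given in the sources used here. Each value is a log2 ratio of Cy5, labelled as liver, over Cy3, labelled as universal mouse reference RNA from a pool of 11 mouse cell lines. The labels call the arrays of a group biological replicates and do not say how many animals each holds, so p-values measure the spread between these arrays.

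The clock of a cell is a feedback loop of transcription. Clock, together with its partner Arntl (also called Bmal1), switches on genes with an E-box in their promoter, and the Per and Cry proteins made from such genes shut this activity off. Nr1d1 and Nr1d2, the Rev-erb nuclear receptors, repress Arntl and are opposed by the Ror receptors. Dbp, Tef and Hlf, the PAR-domain basic leucine zipper factors, activate genes through the D-box, and Nfil3 represses through the same element. In liver these factors give a daily rhythm to genes of bile acid, lipid, glucose and drug metabolism. Per1 is in addition a rapid target of glucocorticoids.

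Promoter sequence is shown for Per3 and Clock, since these were the 2 genes that passed the test between the control groups described further on. Both come from RefSeq (GRCm38.p6), run from 250 bases before to 50 bases after an annotated start, and are written on the minus strand. Per3 lies at chr4:151044616-151044915, with its D-boxes in capitals, and the first of 3 annotated Clock starts lies at chr5:76304743-76305042.
Per3: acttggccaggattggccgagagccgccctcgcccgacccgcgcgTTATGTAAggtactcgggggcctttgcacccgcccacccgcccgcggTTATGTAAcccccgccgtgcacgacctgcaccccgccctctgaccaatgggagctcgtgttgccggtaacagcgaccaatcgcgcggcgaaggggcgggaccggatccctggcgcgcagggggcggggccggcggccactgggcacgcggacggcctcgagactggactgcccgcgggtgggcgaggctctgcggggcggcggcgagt
Clock: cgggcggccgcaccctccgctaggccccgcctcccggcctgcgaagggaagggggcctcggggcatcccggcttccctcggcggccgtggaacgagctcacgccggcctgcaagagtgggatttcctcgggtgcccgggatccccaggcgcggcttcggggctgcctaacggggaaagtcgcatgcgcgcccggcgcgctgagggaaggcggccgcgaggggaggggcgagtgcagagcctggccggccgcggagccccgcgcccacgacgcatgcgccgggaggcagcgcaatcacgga

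The Per3 window holds the D-box TTATGTAA at positions -205 and -158 from the start. Motifs were searched on both strands as the E-box CACGTG, the D-box TTATGTAA or TTACGTAA, and the Rev-erb/ROR element TAGGTCA. RefSeq promoters were matched for 9 of the 10 genes, with 13 windows. Per3 was the only one with a D-box, which 1.06% of 32851 promoters held. Cry1, Per1 and Tef had the E-box in 4 of the 13 windows, against 7.15% of all promoters. None of the 13 windows held the Rev-erb/ROR element, which 2.61% of promoters held, and none of the 3 Clock windows held any of the motifs. A match describes these letters alone.

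The 4 IL1-beta arrays carry a profile of liver over the pool and the 4 control arrays do not. A ratio near 0 means a similar signal in both channels, not the absence of liver RNA. Hepatocyte markers (8 of 10 measured) had array medians of 6.01 to 6.41 with IL1-beta, against -0.37 to 0.23 in the controls. Female and male control arrays mirrored each other, with r over all genes of -0.722 to -0.478, while IL1-beta arrays correlated at 0.942 to 0.973. Control arrays also went against their labels on sex chromosome genes: Xist, which is expressed from the inactive X chromosome, was at -4.94 and -4.57 on the female control arrays, against 5.40 and 5.78 on the male control arrays. On the IL1-beta arrays Xist went with the labels, at 2.11 and 1.52 in females, against -4.32 and -4.36 in males. The direction of the control arrays is therefore not settled. Each difference between control groups is given as labelled (female minus male), and with its sign turned and divided by 2 (male minus female, over 2). The second form is the size that a single difference would have if each array of a mirrored pair carried it with opposite sign. It leaves each p-value as it was.

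In liver of IL1-beta mice, 6 clock genes were higher than in the cell line pool and 4 were lower. The D-box activators Tef and Dbp, the receptor Nr1d2 and the period gene Per3 were the 4 highest, at 2.16-fold to 2.31-fold over the pool. Clock and the cryptochrome Cry1 were the 2 lowest, at 2.21-fold and 1.81-fold under it. In limma, with p-values adjusted over all genes by Benjamini-Hochberg and a threshold of 0.05, 10 of 10 passed. Since liver and cultured lines differ widely, 78.5% of all genes passed here (36.2% above and 42.3% below the pool), and the median absolute ratio was 0.98 for the clock genes and 0.96 for all genes. The count of 10 of 10 is therefore read against a background where most genes pass. On the same arrays cell cycle markers (9 of 10 measured) had medians of -4.35 to -3.52. Kupffer cell and macrophage markers (6 of 8 measured) had medians of 6.10 to 6.49, though Adgre1 lay below the pool, at -1.62 to -0.38. Neutrophil markers (5 of 8 measured) had medians of 5.98 to 6.54, with Mpo lowest at 0.77 to 1.49. The part of cell makeup in these ratios was not tested. In whole liver, fewer cells of a type and less RNA per cell cannot be told apart.

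Clock, the DNA-binding activator of the loop, gave ratios of -0.62 and -1.56 on the female IL1-beta arrays, with -1.20 and -1.18 on the male IL1-beta arrays. All 4 lay below 0, with a mean of -1.14 ± 0.17 (SE; limma adjusted p = 0.000606). Its partner Arntl had -1.87 and -2.15 in the female group and -2.22 and -2.77 in the male group. The mean of Arntl was -2.25 ± 0.17 (limma adjusted p = 1.52e-05), so both partners of the activator pair had less signal in liver than in the pool.

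The period genes, which encode repressors of the activator pair, did not share a direction. Per1 was at 0.12 and -0.28 on the female IL1-beta arrays and at -0.63 and -0.84 on the male IL1-beta arrays, with a mean of -0.41 ± 0.12 (limma adjusted p = 0.0136). Per2 was at 0.37 and 0.81 on the female arrays and at 0.34 and 0.57 on the male arrays, with a mean of 0.52 ± 0.11 (limma adjusted p = 0.00371). Per3 had 1.51 and 1.21 on the female arrays and 0.71 and 1.11 on the male arrays, with a mean of 1.13 ± 0.24 (limma adjusted p = 0.00348). All 4 arrays lay above 0 for Per2 and Per3, while 3 of 4 lay below 0 for Per1.

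The cryptochromes, the partners of the period proteins in repression, moved apart. Cry1 was at -1.14 and -0.21 on the female IL1-beta arrays and at -1.01 and -1.05 on the male IL1-beta arrays, with a mean of -0.85 ± 0.16 (limma adjusted p = 0.00202). Cry2 was at 0.68 and 0.43 on the female arrays and at 0.43 and 0.66 on the male arrays, with a mean of 0.55 ± 0.14 (limma adjusted p = 0.00775). All 4 arrays were below 0 for Cry1 and above 0 for Cry2. Quantile normalization ended the calls over the pool of Cry1 (-0.55, adjusted p = 0.0553) and Cry2 (0.38, adjusted p = 0.206), and likewise of Per2 (0.36, adjusted p = 0.0974) and Per3 (0.76, adjusted p = 0.069). That setting puts the same spread on all arrays, which narrows the IL1-beta ratios and widens the control ratios, so it is not a like-for-like check.

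Of the Rev-erb receptors, Nr1d2 was above the pool and Nr1d1 slightly below it. Nr1d2 had 0.45 and 1.43 on the female IL1-beta arrays, with 1.55 and 1.09 on the male IL1-beta arrays, with a mean of 1.13 ± 0.17 (limma adjusted p = 0.000642). Nr1d1 had 0.00 and -0.27 on the female arrays and -0.47 on each male array, with a mean of -0.30 ± 0.11 (limma adjusted p = 0.034). Centring the arrays on their medians, which raises the all-gene median of -0.11 to 0, ended the calls of Nr1d1 (-0.20, adjusted p = 0.138) and Per1 (-0.30, adjusted p = 0.05), as did quantile normalization (Nr1d1 adjusted p = 0.39, Per1 0.196). Leaving out the female IL1-beta array 2 also ended both (Nr1d1 -0.24, adjusted p = 0.142, and Per1 -0.31, adjusted p = 0.0728), as did leaving out the male IL1-beta array 2 (Nr1d1 adjusted p = 0.106, Per1 0.0754). Nr1d1 also lost its call without the male IL1-beta array 1 (adjusted p = 0.105) and without either male control array (0.0549).

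Both D-box activators were above the pool on all 4 arrays. Dbp had 1.16 and 1.09 on the female IL1-beta arrays, with 0.73 and 1.46 on the male IL1-beta arrays, with a mean of 1.11 ± 0.14 (limma adjusted p = 0.000233). Tef had 1.52 and 1.10 on the female arrays and 0.98 and 1.23 on the male arrays, with a mean of 1.21 ± 0.12 (limma adjusted p = 5.44e-05). The related activator Hlf was higher still, at 3.42 ± 0.09 (limma adjusted p = 8.49e-08), with 3.49 and 3.52 in females and 3.21 and 3.45 in males. Nfil3, the repressor at the same element, was at -0.52 ± 0.09 (limma adjusted p = 0.00129).

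**Figure D1:**
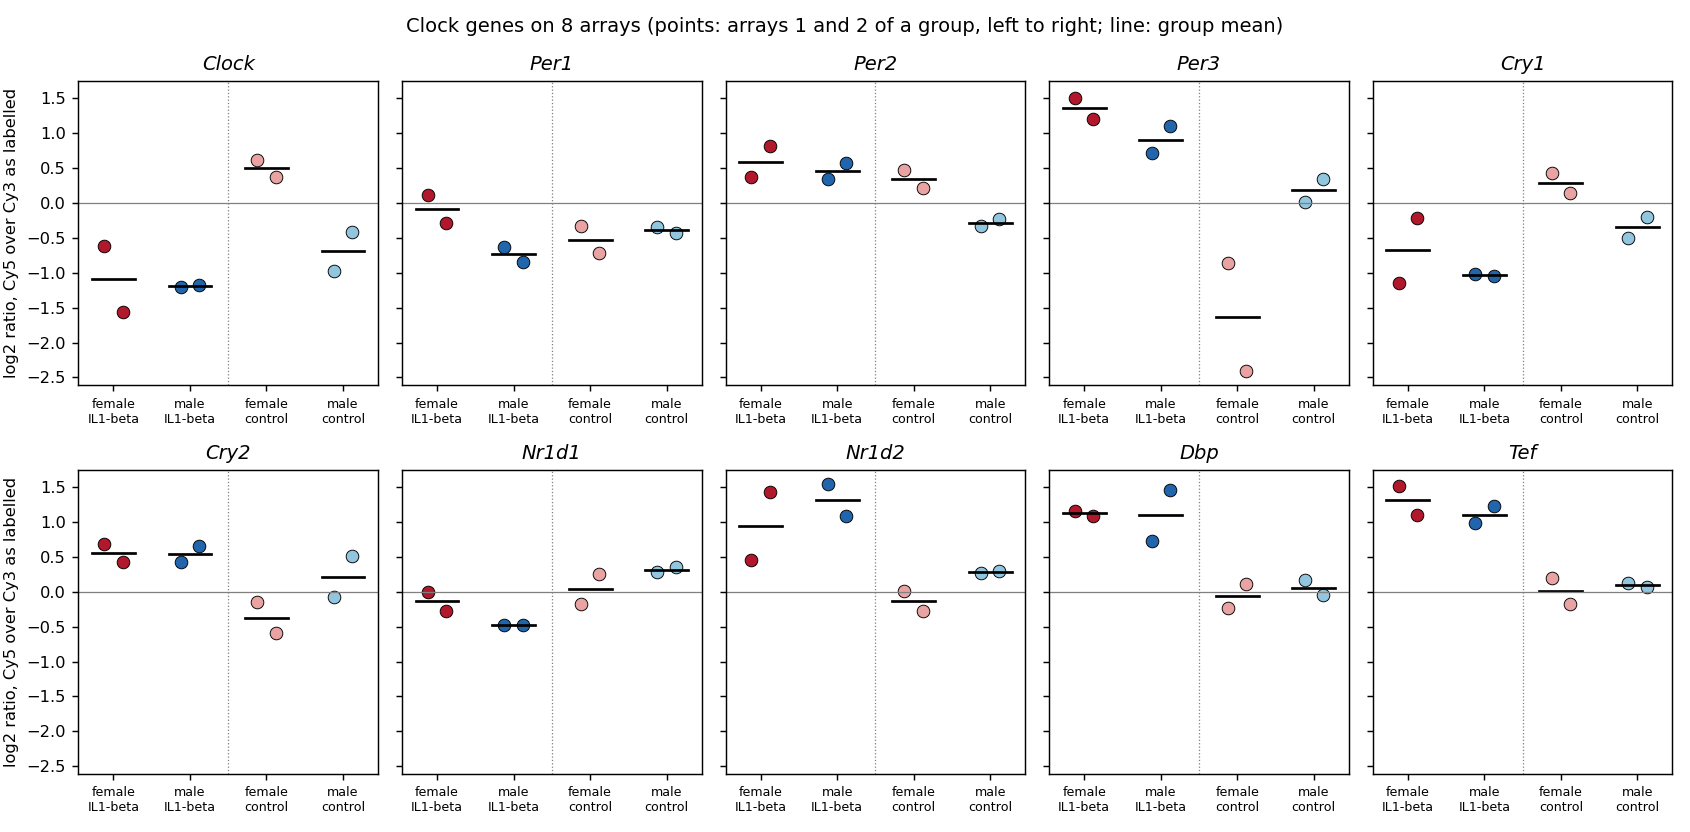
Log2 ratio of Cy5 over Cy3, as labelled, for each clock gene (1 panel each) on the 2 female IL1-beta, 2 male IL1-beta, 2 female control and 2 male control arrays; each point is an array and each line a group mean. Tef, Dbp and Per3 sit above 0 on all 4 IL1-beta arrays and Clock below 0, while Clock and Per3 show the widest gaps between the control groups.

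Of the 10 genes, 6 had more than 1 probe, and most probes of a gene shared a direction. All 4 Clock probes were below the pool on average, at -2.28, -0.46, -0.71 and -1.12, and all 4 Tef probes were above it, at 1.24, 1.28, 0.63 and 1.67. The 2 Per2 probes gave 0.60 and 0.45, the 2 Cry1 probes -0.67 and -1.03, and the 2 Cry2 probes 0.30 and 0.79. The Nr1d1 probes disagreed, at 0.27, -0.04 and -1.15, so the Nr1d1 mean rests on the third probe. In the GRCm38.p6 annotation Nr1d1 overlaps Thra, Per3 overlaps Uts2 and Dbp overlaps Sphk2. Clock overlaps Ube2n-ps1 and Gm7467, Per2 overlaps Gm35591 and Cry2 overlaps D930015M05Rik. Whether the probes tell these neighbours apart was not tested.

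**Figure D2:**
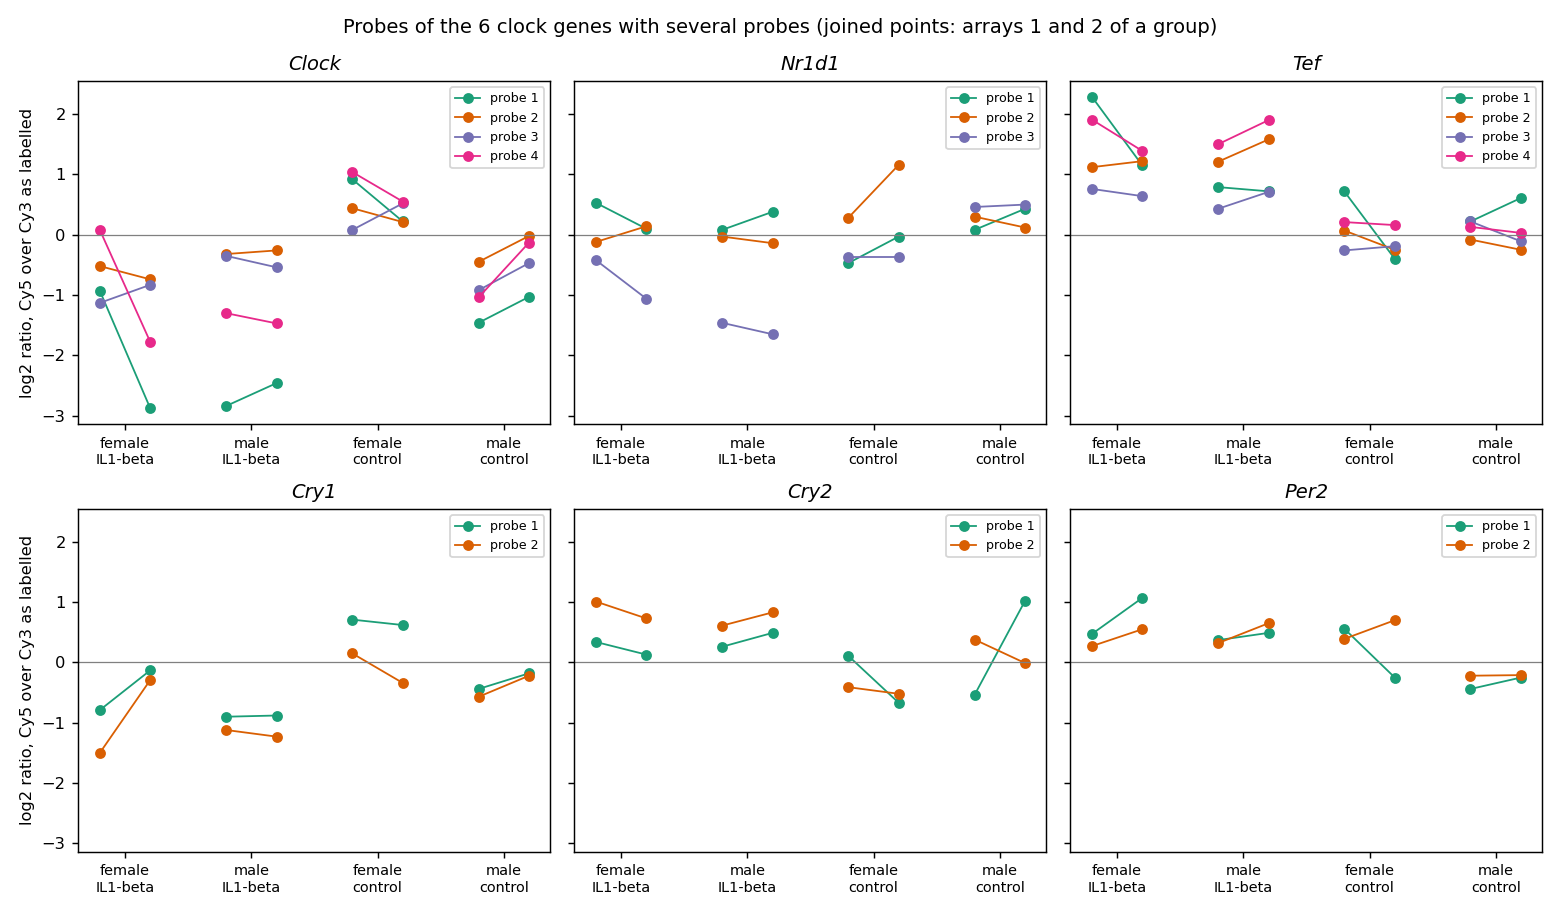
Log2 ratio of Cy5 over Cy3, as labelled, for every probe of the 6 clock genes with several probes, by group; joined points are arrays 1 and 2 of a group, and colours are probes. The 4 Clock probes keep the same order of the control groups, while the 3 Nr1d1 probes part on the IL1-beta arrays and in their order of the control groups.

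Between the sexes under IL1-beta, no clock gene passed the test. In limma 0 of 10 passed, against 0.163% of all genes, and at an unadjusted p under 0.05 there was 1, Per1, against 8.28% of all genes. Per1 was higher in females by 0.66 ± 0.23 (SE; limma adjusted p = 0.476). Its female IL1-beta arrays (0.12 and -0.28) lay above both male IL1-beta arrays (-0.63 and -0.84). Per1 stayed short of the threshold under every alternative, with adjusted p between 0.321 and 1.

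The female and male IL1-beta arrays did not overlap for 3 of 10 genes, Per1, Per3 and Nr1d1, against 36.9% of all genes. Per3 was higher in females by 0.45 ± 0.48 and Nr1d1 by 0.33 ± 0.21, and neither passed (limma adjusted p = 0.925 and 0.806). Dbp and Cry2 had the smallest differences, at 0.03 ± 0.28 and 0.01 ± 0.27. With 2 arrays a group the intervals stay wide: the 95% interval of the female minus male difference ran from -0.64 to 0.69 for Dbp, from -0.71 to 0.91 for Clock and from -1.20 to 0.43 for Nr1d2. Each interval holds the differences that remain compatible with these arrays. It is not a limit of detection, since larger differences could also miss the threshold. Elovl3, a liver gene described further on, had -2.54 ± 0.53 and did not pass (limma adjusted p = 0.223).

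Between the control groups, Clock and Per3 passed the test in opposite directions. Clock was at 0.62 and 0.38 on the female control arrays, against -0.97 and -0.41 on the male control arrays. The difference as labelled was 1.19 ± 0.34 (SE; limma adjusted p = 0.0497), which is -0.59 ± 0.17 when turned and divided by 2. Per3 was at -0.86 and -2.41 on the female control arrays, against 0.01 and 0.35 on the male control arrays. Its difference as labelled was -1.82 ± 0.48 (limma adjusted p = 0.0378), or 0.91 ± 0.24 turned and divided by 2. In turned form Per3 lay on the side of Xist and Clock on the other side.

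These 2 of 10 genes compare with 21.4% of all genes that passed between the control groups, so the share was near the background (9.3% positive and 12.1% negative as labelled). The groups did not overlap for 7 of 10 clock genes (the exceptions were Per1, Dbp and Tef), against 67.4% of all genes. All 4 Clock probes were higher on the female control arrays, by 1.82, 0.56, 1.00 and 1.38 as labelled, and 1 of these differences passed (adjusted p = 0.0431). Per3 has 1 probe.

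Both calls were close to the threshold. They were lost when same-numbered female and male control arrays, which mirror each other most closely (r = -0.722 and -0.592), were averaged into 1 value a pair after turning (Clock adjusted p = 0.196, Per3 0.087), and when the control groups were fitted alone (Clock 0.0576, Per3 0.103). The Clock call also ended with the probe of highest mean ratio alone (0.56, adjusted p = 0.127). Without the female control array 2 the Per3 difference was -1.04 (adjusted p = 0.0828), and without array 1 of that group it was -2.59 (adjusted p = 0.00881). Leaving out any other array ended the Per3 call too (adjusted p between 0.0586 and 0.129). The Clock call was lost without any 1 control array or either male IL1-beta array (adjusted p between 0.0636 and 0.218).

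Of the other clock genes, Per2 came nearest. Per2 had 0.47 and 0.22 on the female control arrays, against -0.33 and -0.23 on the male control arrays, a difference of 0.63 ± 0.22 as labelled (limma adjusted p = 0.0892; turned and divided by 2, -0.31 ± 0.11). Cry1 had 0.43 and 0.14 on the female arrays, against -0.50 and -0.20 on the male arrays, a difference of 0.64 ± 0.32 (limma adjusted p = 0.199). Cry2 had -0.15 and -0.59 on the female arrays, against -0.08 and 0.51 on the male arrays, a difference of -0.58 ± 0.27 (limma adjusted p = 0.17). In turned form these are -0.32 ± 0.16 for Cry1 and 0.29 ± 0.14 for Cry2.

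As means of their probes, the Rev-erb receptors and the D-box activators lay between -0.27 and 0.35 on all control arrays. Nr1d1 was at -0.18 and 0.25 on the female control arrays, against 0.28 and 0.35 on the male control arrays. Its 3 probes differed by -0.50, 0.51 and -0.85 as labelled, so this mean joins opposite signs. No Nr1d1 probe passed (limma adjusted p = 0.242, 0.291 and 0.062). Nr1d2 was at 0.01 and -0.27 on the female arrays, against 0.27 and 0.30 on the male arrays. Dbp was at -0.23 and 0.11 on the female arrays, against 0.17 and -0.05 on the male arrays, and Tef at 0.19 and -0.17, against 0.12 and 0.07. None of these 4 genes passed (limma adjusted p between 0.383 and 0.81). The 95% interval of the difference as labelled ran from -0.78 to 0.54 for Dbp and from -0.64 to 0.46 for Tef.

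Per1 did not mirror between the control groups. It was at -0.33 and -0.72 on the female control arrays, against -0.34 and -0.43 on the male control arrays, below 0 on all 4. It was the only clock gene with the same sign on all 4 control arrays, a pattern of 11.8% of all genes. Clock, Per2, Per3 and Cry1 had opposite signs in the 2 control groups, which makes 4 of 10, against 42% of all genes.

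Markers of other cell types also differed between the control groups. Adipocyte markers (6 of 7 measured) had medians of -2.91 and -3.25 on the female control arrays, against 0.32 and 4.17 on the male control arrays. Kupffer cell and macrophage markers (6 of 8 measured) had -1.01 and -0.70 on the female control arrays, against 1.02 and 0.69 on the male control arrays. Their part in the Clock and Per3 differences was not tested.

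The sex difference under IL1-beta and the turned control difference were then set against each other. In limma 0 of 10 clock genes differed between them, against 0.209% of all genes, and 0 had an unadjusted p under 0.05, against 10.3% of all genes. Per1 came nearest: its sex difference was 0.66 under IL1-beta and 0.07 on the turned control arrays, 0.58 ± 0.26 apart (limma adjusted p = 0.505). Clock was at 0.10 under IL1-beta and at -0.59 on the turned control arrays, with a 95% interval of the gap from -0.21 to 1.60. The 4 Clock probes did not share a direction under IL1-beta, at 0.75, -0.34, -0.54 and 0.54. Their gaps were 1.66, -0.06, -0.04 and 1.23, and none passed (limma adjusted p between 0.514 and 0.977). Per3 was positive both under IL1-beta and on the turned control arrays, at 0.45 and 0.91. The signs matched for 6 of 10 genes (Per1, Per3, Cry2, Nr1d1, Dbp and Tef), against 60.9% of all genes. With the control difference as labelled, the signs matched for the other 4, against 39% of all genes. In that form the sex differences of 0 of 10 clock genes passed as unlike in limma, against 14.3% of all genes, and 2 had an unadjusted p under 0.05, against 31.2%. Per3 came nearest there, at 2.26 (adjusted p = 0.0699), and Clock had -1.09 (adjusted p = 0.18).

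**Figure D3:**
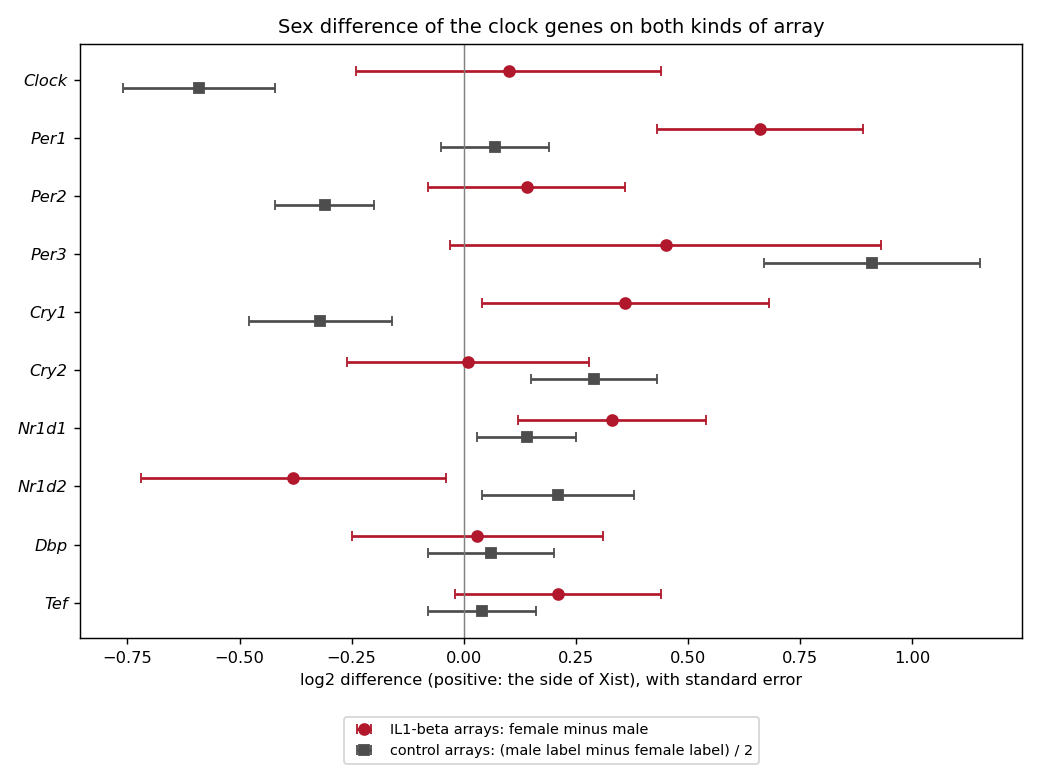
Sex difference (log2, points, with standard error bars) of each clock gene as female minus male on the IL1-beta arrays and as male label minus female label divided by 2 on the control arrays; positive values lie on the side of Xist. Per3 reaches 0.91 and Clock -0.59 on the control arrays, while Per1 has the largest value on the IL1-beta arrays, at 0.66.

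IL1-beta minus control, the comparison named by the series, sets liver over pool against arrays without that profile, so it is given first as the labels have it. In females 7 of 10 clock genes passed in limma, against 57.2% of all genes. Higher under IL1-beta were 5 (Per3, Cry2, Nr1d2, Dbp and Tef; 25.8% of all genes) and lower were 2 (Clock and Cry1; 31.4% of all genes). In males 5 of 10 passed, against 61.5% of all genes, with 4 higher (Per2, Nr1d2, Dbp and Tef; 29.4% of all genes) and 1 lower (Nr1d1; 32.1%). Averaged over the sexes 9 of 10 passed, against 69.2% of all genes (31.6% higher, 37.6% lower), with Per1 at 0.04 ± 0.16 as the exception (adjusted p = 0.819).

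With the control sign turned the order of the sexes was the other way round. In females 3 of 10 passed (Per2, Dbp and Tef), against 62.8% of all genes, and in males 7 of 10 (Clock, Per1, Cry1, Cry2, Nr1d2, Dbp and Tef), against 58.1%. Averaged over the sexes 7 of 10 passed, against 71.3% of all genes, and Per1 was then among them, at -0.86 (adjusted p = 0.00252). As labelled, the count was 4 in females without either female control array. In males it was 2 without the male IL1-beta array 1 or the male control array 1, and 1 without array 2 of either of these groups. All 3 comparisons share arrays with each other and with the ratio over the pool, so they add no separate evidence.

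Dbp and Tef gave much the same difference whichever way the control arrays are read, since their control values lie near 0. That closeness was fixed in advance, because the difference then repeats the ratio over the pool (1.11 for Dbp and 1.21 for Tef). It does not measure liver of IL1-beta mice against liver of vehicle mice. Dbp was higher under IL1-beta by 1.18 ± 0.28 in females and by 1.04 ± 0.28 in males (limma adjusted p = 0.00974 and 0.0152), and by 1.07 and 1.16 with the control sign turned (adjusted p = 0.0134 and 0.0105). Tef was higher by 1.30 ± 0.23 in females and by 1.01 ± 0.23 in males (limma adjusted p = 0.0028 and 0.00769), and by 1.32 and 1.20 with the control sign turned (adjusted p = 0.00225 and 0.004). The Dbp call was lost without the female control array 1 in females (1.01, adjusted p = 0.0557). In males it was lost without the male control array 2 (0.92, adjusted p = 0.0737) or the male IL1-beta array 2 (0.67, adjusted p = 0.0816), and Tef without the male IL1-beta array 2 (0.89, adjusted p = 0.0504). Quantile normalization ended these calls in both sexes, for Dbp (0.95 in females and 0.65 in males, adjusted p = 0.0765 and 0.171) and for Tef (0.89 and 0.56, adjusted p = 0.0669 and 0.183). As described above, that setting narrows the ratios on the IL1-beta arrays and widens those on the control arrays.

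Per3 depended wholly on that reading. It was higher under IL1-beta by 2.99 ± 0.48 in females as labelled (limma adjusted p = 0.00169), and had -0.28 with the control sign turned (adjusted p = 0.632). In males Per3 differed by 0.73 as labelled and by 1.09 with the control sign turned (adjusted p = 0.0888). Clock was lower in females, with a difference of -1.59 ± 0.34 as labelled (limma adjusted p = 0.00662) and had -0.59 with the control sign turned (adjusted p = 0.171). In males Clock had -0.50 as labelled, which did not pass, and -1.88 with the control sign turned (adjusted p = 0.00308). Of Nr1d2, the difference was 1.07 ± 0.34 in females and 1.04 ± 0.34 in males as labelled (limma adjusted p = 0.0328 and 0.0335), and 0.81 and 1.60 turned (adjusted p = 0.0766 and 0.00631).

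Around the 10 genes, 61 of 69 listed partners and targets were measured. The counts over the pool that follow stand beside 36.2% of all genes above it and 42.3% below it. Of the other core loop factors (9 of 13 measured), 4 were above and 4 below the pool in IL1-beta liver. Rora, the activator opposed to the Rev-erb receptors, was at 1.55 ± 0.13 (limma adjusted p = 2.54e-05). The 20 measured kinases, ubiquitin ligase parts and other modifiers (of 22) had 4 above and 10 below, among them the casein kinase Csnk1e, which phosphorylates period proteins, at -2.55 ± 0.11 (limma adjusted p = 9.18e-07). Of 23 measured liver outputs (of 24), 16 were above and 6 below, with a median of 2.76 over the list and -0.11 over all genes. They were listed as genes of liver, so signal above a cell line pool was in part set by that choice. Gys2, the liver glycogen synthase, had 7.08 ± 0.11 (limma adjusted p = 1.6e-08). The glucocorticoid-responsive genes (9 of 10 measured) had 7 above and 1 below.

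Between the sexes under IL1-beta 0 of the 61 partners passed in limma, and 10 had an unadjusted p under 0.05, with the 8.28% of all genes above as background. Tsc22d3, a glucocorticoid-induced leucine zipper gene, came nearest. It had 2.38 on each female IL1-beta array, against 1.39 and 1.15 on the male IL1-beta arrays, a difference of 1.11 ± 0.19 (limma adjusted p = 0.129). Alas1, the first enzyme of haem synthesis, had 3.42 and 3.62 on the female arrays, against 2.39 and 2.46 on the male arrays, a difference of 1.10 ± 0.19 (limma adjusted p = 0.133). Elovl3, a fatty acid elongase with a daily rhythm in mouse liver, was lower in females at 3.62 and 2.50, against 5.45 and 5.75 in males (-2.54 ± 0.53, limma adjusted p = 0.223).

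Between the control groups, 13 of the 61 partners passed in limma, a share near the 21.4% of all genes. By list these were 7 of 23 outputs, 5 of 9 glucocorticoid-responsive genes and 1 of 9 other loop factors. Of the 20 modifiers 0 passed, and 3 had an unadjusted p under 0.05. The gap between the lists was not tested. Of the modifiers, the phosphatase Ppp1ca was nearest, at -0.64 ± 0.18 as labelled (limma adjusted p = 0.0501). The loop factor that passed was Bhlhe41 (also called Dec2), a repressor at E-boxes. It had 1.16 and 1.12 on the female control arrays, against -0.39 and -0.42 on the male control arrays, a difference of 1.54 ± 0.24 as labelled (limma adjusted p = 0.00692; turned and divided by 2, -0.77 ± 0.12).

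Among the outputs, Elovl3 had 2.60 and 1.73 on the female control arrays, against -2.33 and -1.16 on the male control arrays. Its difference was 3.91 ± 0.53 as labelled (limma adjusted p = 0.00419) and -1.96 ± 0.26 in turned form, on the same side as its value under IL1-beta. Noct (nocturnin), whose transcript has a daily rhythm in mouse liver, also lay on the side opposite to Xist in turned form, at -0.89 ± 0.12 (limma adjusted p = 0.00462). Under IL1-beta its sex difference had the other sign, at 0.31 ± 0.25, and did not pass (limma adjusted p = 0.87). On the side of Xist in turned form were Cdkn1a, a cell cycle inhibitor (1.12 ± 0.13, limma adjusted p = 0.0024), Alas1 (0.59 ± 0.09, adjusted p = 0.00731), the bile acid enzyme Cyp7a1, Rgs16 and Cyp2a5. Cyp2a5 has a near-identical paralogue, so its value is uncertain. When the sex difference under IL1-beta was set against the turned control difference, 0 of the 61 partners passed in limma, against 0.209% of all genes. At an unadjusted p under 0.05 there were 12, against 10.3% of all genes.

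Glucocorticoid-responsive genes split. Fkbp5, a chaperone of the glucocorticoid receptor, had -1.38 and -1.41 on the female control arrays, against 1.03 and 1.29 on the male control arrays, a difference of -2.56 ± 0.30 as labelled (limma adjusted p = 0.00266; 1.28 ± 0.15 turned and divided by 2). Mt2, a metallothionein, had -2.57 and -0.73 on the female arrays, against 3.42 and 1.85 on the male arrays, and Sgk1, a kinase, also lay on that side. Dusp1, a phosphatase of stress kinases, went the other way, with 1.80 and 0.77 on the female control arrays, against -1.31 and -0.93 on the male control arrays (2.40 ± 0.38 as labelled, limma adjusted p = 0.00732). Lcn2, an acute phase lipocalin, had 0.63 and 1.14 on the female arrays, against -0.28 and -0.86 on the male arrays (1.46 ± 0.27 as labelled, limma adjusted p = 0.0128). The other measured genes of this list, Tsc22d3, Klf9, Angptl4 and Tat, did not pass (limma adjusted p between 0.211 and 0.919). Per1, itself glucocorticoid-responsive, did not pass either, with a turned difference of 0.07 ± 0.12.

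**Figure D4:**
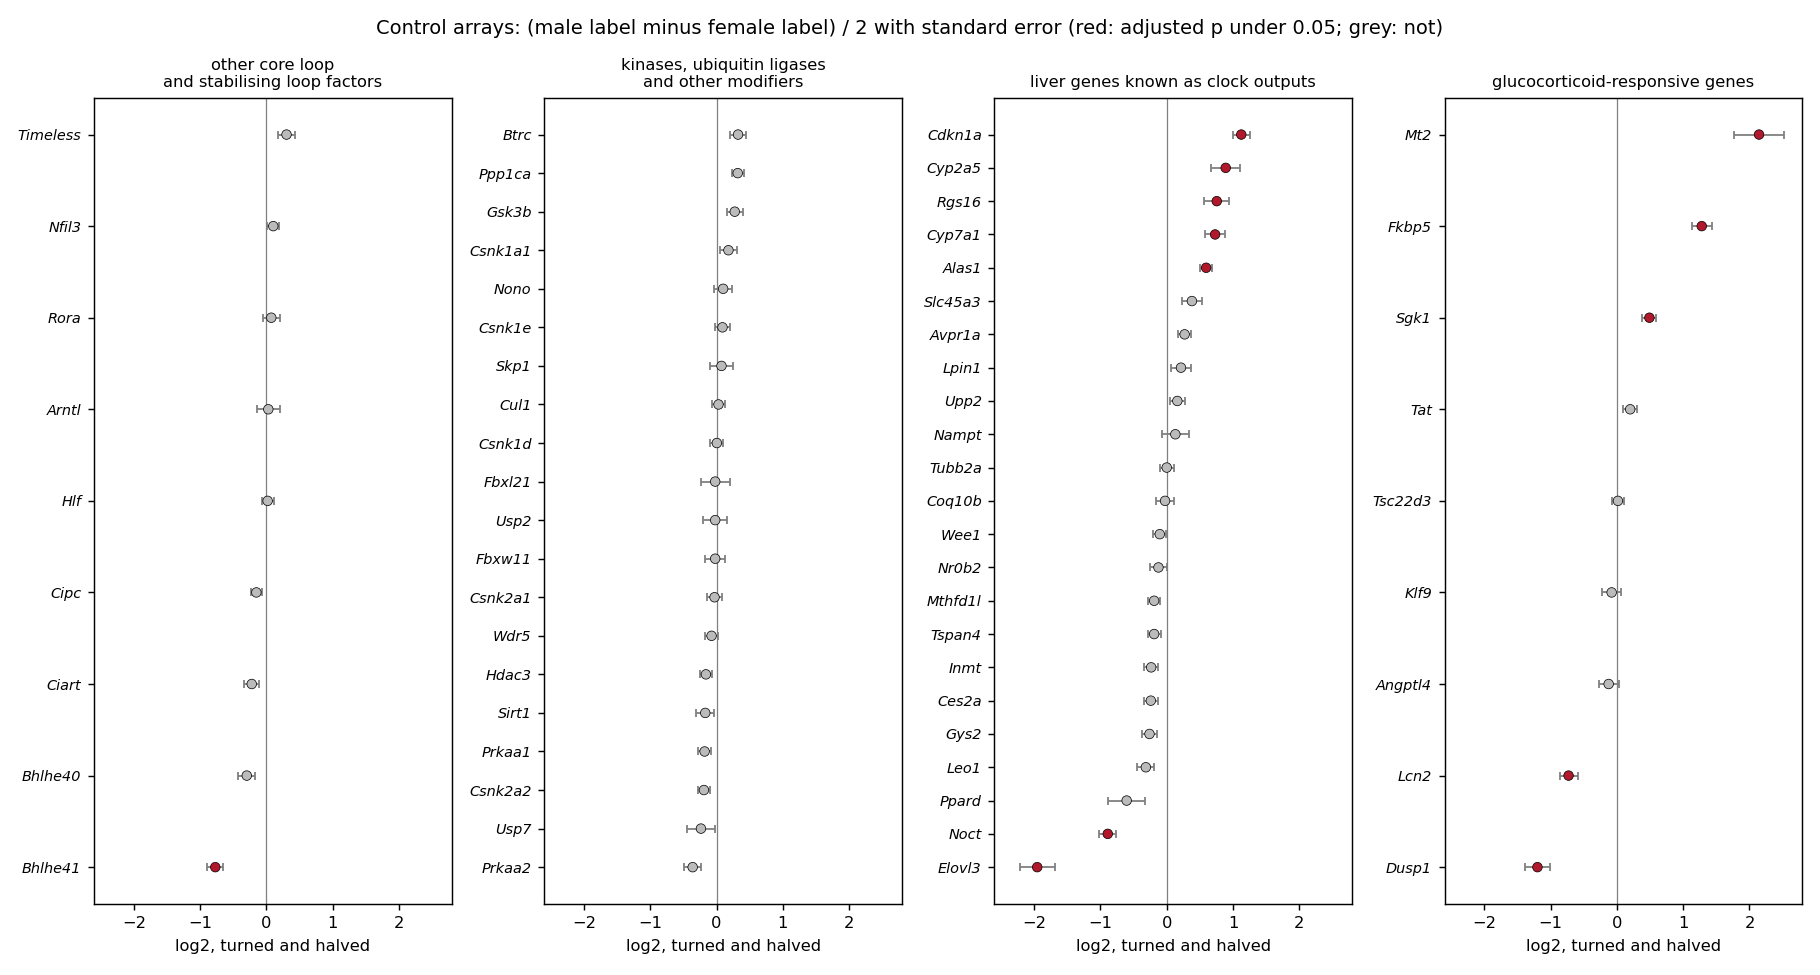
Control difference, male label minus female label divided by 2 (log2, with standard error bars), for the measured partners and targets of the clock genes in 4 lists; red points passed at an adjusted p under 0.05 and grey points did not. Bhlhe41 is the 1 loop factor in red, Elovl3 lies lowest at -1.96, and Mt2 lies highest at 2.15.

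Likeness of pattern was measured as Pearson's r over the 8 arrays, after the mean of the 4 IL1-beta arrays and that of the 4 control arrays were subtracted from each gene. Every gene is ranked over the same 8 arrays, of which the 4 control arrays mirror each other, and no p is given. Among the clock genes, Per2 and Cry1 were most alike (r = 0.901). Per2 was at place 37 of 15345 genes ranked for Cry1, and Cry1 at place 85 for Per2. Per3 and Cry2 followed (r = 0.881), with Per3 at place 185 for Cry2 and Cry2 at place 429 for Per3. The nearest clock gene to Clock was Per2, at place 3439. Outside the clock genes, Zbtb21 (0.989), Bok (0.988) and Gpbp1 (0.986) were most like Clock, and Six5 (0.996), Prkcd (0.994) and Slamf6 (0.984) most like Per3. Lrit1 (0.964), Gadd45g (0.958) and Zfp658 (0.953) were most like Dbp, and Mrps25 (0.975) was nearest to Per1.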

How the data were processed

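Liver RNA was measured on 8 Agilent 2-colour arrays. Each deposited value is a log10 ratio, Cy5 (liver) over Cy3 (reference pool) per the labels, for 1 feature; the base was judged from the values, since no source states it. The submitters' processing notes name Agilent Feature Extraction; how it corrected background and dye is not given in the sources used. Ratios were multiplied by 3.32 to give log2. An exact 0 was taken as no measurement (5115 features or fewer on each IL1-beta array, up to 10324 on a control array). Of 45018 features, 26218 had 1 gene symbol and a value on all 8 arrays, and each of 15346 genes is the mean of its probes. Channel intensities were not analysed here, so the number of arrays limits the precision. Symbols came from GEO's platform annotation.

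limma 3.58.1 in R 4.3.3 was fitted to the whole table with 4 group means and eBayes (residual df 4, prior df 2.88), two-sided, with Benjamini-Hochberg adjustment and 0.05 as the threshold. Alternatives are given in the closing section. The clock genes, the lists and the tests were chosen with earlier results of these data known. Named genes are all 10 clock genes and, from each list of partners, up to 4 with the smallest p in a comparison; the text gives a selection. Promoters and gene overlaps came from RefSeq tables of GRCm38.p6.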

Additional observations from a re-analysis of the deposited data

How the results depend on the processing

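Of 1453 values of single clock genes under alternatives, 1263 kept direction and call, 130 lost and 16 gained the call, 42 changed sign without passing either way, and 2 reversed. Both reversals came from turning the control sign: Per3 in females, at -0.28 (adjusted p = 0.632), and Per1 averaged over the sexes, at -0.86 (adjusted p = 0.00252). The sex difference under IL1-beta and its gap to the control difference had 0 clock genes passing in all 22 alternatives each. Passing over the pool were 10, but 4 with quantile normalization and 5 with a 2-fold minimum (8 to 10 leaving out an array). Between the controls 2 passed, but 1 with median centring, 1 with at least 1 value in each group, 1 without the 25% of genes of lowest mean ratio, and 4 with quantile normalization. There 0 passed with exact zeros kept, the compared groups only, or means of same-number control pairs (0 to 1 leaving out an array). For IL1-beta minus control, 7 passed in females (3 with quantile normalization, 3 with the control sign turned, 4 to 7 leaving out an array). In males 5 passed (7 with the control sign turned, 1 with quantile normalization, 3 with a 2-fold minimum, 1 to 6 leaving out an array), and averaged over the sexes 9 (7 with the control sign turned, 4 with quantile normalization, 5 with a 2-fold minimum, 6 to 9 leaving out an array). Quantile normalization sets 1 spread on all 8 arrays, which narrows the IL1-beta ratios and widens the control ratios. Its counts are therefore not a like-for-like check. The cause of the changes was not tested. Same-numbered arrays deviated with r of -0.430 between the control groups and -0.407 between the IL1-beta groups. Across the 2 kinds of array r was -0.039 to 0.045. The IL1-beta arrays do not mirror each other, and the source of their r was not tested. No label ties the numbers to a shared animal or day, so they were not used to pair arrays; in controls that mirror each other a shared origin would also give an r below 0, and the cases cannot be told apart. With a replicate block 0 clock genes passed between the controls (Clock adjusted p = 0.0801, Per3 0.0581), and a crossed block, chosen after seeing the data, gave 2. Among all genes, quantile normalization moved the count from 25 to 5 under IL1-beta, from 3284 to 6766 between the controls and from 32 to 628 for the gap (2189 as labelled); the compared groups only gave 10 under IL1-beta and 2058 between the controls, and pair means gave 1087.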
